A study of Mus musculus with 12 samples.

Results

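Whole testes of 3-month-old (3M) and 12-month-old (12M) wild-type C57BL/6 male mice were compared gene by gene, to see which differences in transcript level were already present at mid-life. The comparison used 6 of the 12 total RNA libraries of the series, 3 testes at each age; the other 6 libraries were from 6-month-old (6M) and 18-month-old (18M) mice of the same strain. Age was the only labelled factor that separated the groups, and no treatment is recorded. The labels do not give batches of tissue collection, RNA preparation or sequencing, so whether these differed with age is not known. Per the study's methods it is also not known whether mice of 1 age came from the same litter. Reads that StringTie assigned to transcripts were summed per gene over the annotated transcripts and the assembled transcripts that share exons or splice sites with them, which gave 24336 genes of the 29227 genes and loci in the table. Of these, 18105 had enough reads to be tested. The libraries held 50924104 to 71803379 assigned reads, and libraries of the same age correlated with each other at 0.994 to 0.996 (Pearson's r of log2 levels across genes).

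The testis makes sperm inside the seminiferous tubules, where germ cells divide, pass through meiosis and mature as spermatids in contact with Sertoli cells. Between the tubules, the interstitium holds Leydig cells, together with vessels, macrophages and connective tissue. Leydig cells respond to luteinizing hormone by importing cholesterol into mitochondria and converting it to testosterone through CYP11A1, HSD3B enzymes, CYP17A1 and HSD17B3. They also secrete the peptide hormone INSL3 and, in mice, express several glandular kallikreins, a family of serine proteases encoded side by side on chromosome 7. The whole organ was sequenced here, so fewer cells of a type and less RNA per cell cannot be told apart. Levels are given in CPM, the reads of a gene scaled to the assigned reads of its library (normalised over all 12 libraries by the trimmed mean of M-values); CPM is not corrected for transcript length, so levels are compared between ages and not between genes.

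The 2 ages were close to each other for nearly all genes. Using edgeR's quasi-likelihood test with Benjamini-Hochberg adjustment, 10 of the 18105 genes (0.0552%) reached an adjusted p at or under 0.05, and these are the genes referred to as called. Of them, 3 (0.0166%) were higher and 7 (0.0387%) lower at 12M, and 8 (0.0442%) differed by a log2 fold change of at least 1. At an unadjusted p at or under 0.05, 1479 genes (8.17%) differed, 760 higher (4.20%) and 719 lower (3.97%), and the median log2 fold change over all genes tested was -0.00. The 3 libraries of 1 age lay entirely above those of the other for 1305 genes higher at 12M (7.21%) and 1429 genes lower at 12M (7.89%).

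The 7 genes that fell were the kallikreins Klk1b27, Klk1b21, Klk1b24 and Klk1b22, the epoxide hydrolase gene Ephx1, and Tmem237 and Aym1. The 3 that rose were Fetub, Snhg11 and Mpp4. For Mpp4 and Aym1, described further on, the reads lay on assembled transcripts that overlap other annotation, and for Tmem237 26.1 to 65.0% of a library's reads lay on annotated transcripts. Many genes with a greater fitted difference were not called. In all, 41 genes had a log2 fold change of at least 2 in size. Of these, 5 were called, namely the 4 kallikreins and Fetub. Among the other 36, the ages overlapped for 20, and for 14 a single library was at least 5 times as high as the next of the 6.

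**Figure D1:**
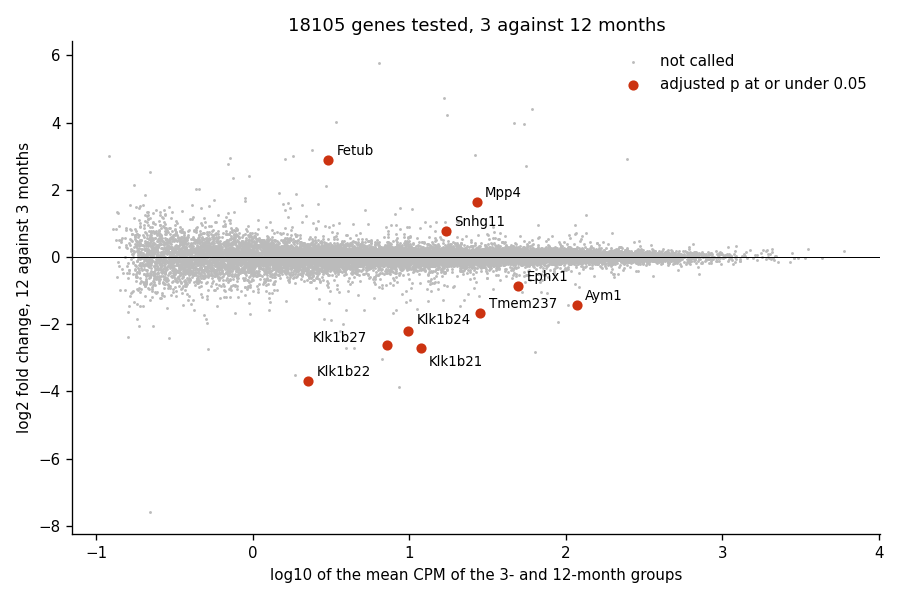
Fitted log2 fold change (12M against 3M, y axis) against the log10 of the mean CPM of the 2 groups (x axis) for the 18105 genes tested. Red points mark the 10 called genes, 7 below 0 and 3 above, and the grey point near the lower left corner is Cyp7a1.

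The grey point at a log2 fold change of -7.58 is Cyp7a1, the rate-limiting enzyme of bile acid synthesis, which is named here because of that value and was chosen after it was seen. It had 18, 26 and 26 reads in the 3M libraries and 0 reads in each 12M library, an at least 24.5-fold difference against a floor of 3 reads over the 12M group. Its adjusted p was 0.133 in edgeR's quasi-likelihood test. It had 2, 6 and 14 reads at 6M and 4, 0 and 2 reads at 18M, so it stood near the detection limit at every age.

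The 4 called kallikreins lie on the plus strand of chromosome 7 (GRCm38, GENCODE vM21), with Klk1b27 at 44052290-44056712, Klk1b21 at 44102328-44106583, Klk1b22 at 44112673-44116922 and Klk1b24 at 44188236-44192455. The regions around their transcription starts are given here beside those of Klk1b8 and Klk1b9, cluster members whose summed reads were not called, so that the likeness of the 4 to each other and to their neighbours can be read directly. Each sequence runs 5′ to 3′ and covers 250 bases before and 50 bases after the start of the RefSeq gene on GRCm38.p6, plus strand. The windows are chr7:44052040-44052339 for Klk1b27, chr7:44102042-44102341 for Klk1b21, chr7:44187986-44188285 for Klk1b24, chr7:44112423-44112722 for Klk1b22, chr7:43950416-43950715 for Klk1b8 and chr7:43975811-43976110 for Klk1b9. Capitals mark the longest run that the 4 called genes share letter for letter, and in Klk1b8 and Klk1b9 the stretch closest to it.
Klk1b27: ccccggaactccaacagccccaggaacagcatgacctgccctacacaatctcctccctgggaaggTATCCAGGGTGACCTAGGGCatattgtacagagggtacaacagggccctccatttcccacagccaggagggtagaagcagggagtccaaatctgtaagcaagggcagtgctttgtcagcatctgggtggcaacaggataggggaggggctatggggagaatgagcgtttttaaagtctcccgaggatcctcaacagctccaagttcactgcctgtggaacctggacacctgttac
Klk1b21: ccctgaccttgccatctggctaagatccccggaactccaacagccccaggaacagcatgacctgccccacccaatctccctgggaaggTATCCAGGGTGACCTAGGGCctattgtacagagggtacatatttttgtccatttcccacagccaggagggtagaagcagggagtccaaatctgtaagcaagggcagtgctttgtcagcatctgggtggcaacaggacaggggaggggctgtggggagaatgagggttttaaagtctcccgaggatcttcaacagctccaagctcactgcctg
Klk1b24: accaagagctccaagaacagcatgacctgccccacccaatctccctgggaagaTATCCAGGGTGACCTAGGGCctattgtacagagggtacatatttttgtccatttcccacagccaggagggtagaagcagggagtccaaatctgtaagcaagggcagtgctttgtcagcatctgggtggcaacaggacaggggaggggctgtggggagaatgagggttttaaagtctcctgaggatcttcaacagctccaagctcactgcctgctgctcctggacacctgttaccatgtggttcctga
Klk1b22: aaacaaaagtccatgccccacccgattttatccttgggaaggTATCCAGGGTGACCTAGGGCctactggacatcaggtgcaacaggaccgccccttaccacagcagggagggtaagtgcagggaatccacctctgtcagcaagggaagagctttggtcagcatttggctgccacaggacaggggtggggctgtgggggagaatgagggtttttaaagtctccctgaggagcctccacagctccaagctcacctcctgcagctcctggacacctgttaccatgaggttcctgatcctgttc
Klk1b8: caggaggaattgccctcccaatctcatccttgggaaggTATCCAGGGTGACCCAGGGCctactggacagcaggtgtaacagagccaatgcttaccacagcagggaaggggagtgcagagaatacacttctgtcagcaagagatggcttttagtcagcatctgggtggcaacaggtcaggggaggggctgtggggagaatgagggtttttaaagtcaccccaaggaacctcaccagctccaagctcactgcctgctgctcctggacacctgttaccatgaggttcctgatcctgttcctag
Klk1b9: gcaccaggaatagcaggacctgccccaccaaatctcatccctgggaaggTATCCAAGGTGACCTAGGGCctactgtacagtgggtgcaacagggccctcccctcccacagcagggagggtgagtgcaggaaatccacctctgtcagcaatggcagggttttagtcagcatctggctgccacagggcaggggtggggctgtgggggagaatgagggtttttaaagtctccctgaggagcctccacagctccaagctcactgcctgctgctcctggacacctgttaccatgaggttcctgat

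The shared run is 20 bases long and begins 162 to 208 bases before the annotated start. It was found in 4 of the 14 promoters of the cluster and in 4 of all 32851 RefSeq promoters (0.0122%), on either strand. Klk1b8 differed from it by T15C and Klk1b9 by G7A, where positions count from 1 at the 5′ end of the run and the run's base comes first. The run was chosen because the 4 genes share it and carries no test. The annotated starts are not at the same place relative to the alignment, and over the whole window the called genes were 60.1% (Klk1b21 and Klk1b22) to 83.4% (Klk1b24 and Klk1b27) identical to each other. Klk1b22 was closer to Klk1b8 (82.4% identity) and Klk1b9 (85.0%), the genes whose summed reads were not called. For Klk1b8 that holds for the sum over its transcripts only. Its annotated transcript had 417, 96 and 443 reads at 3M and 1, 0 and 1 reads at 12M.

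Klk1b27 encodes a glandular kallikrein. It stood at 13.1, 10.9 and 12.9 CPM in the 3M libraries and at 1.99, 2.13 and 1.90 CPM in the 12M libraries, a log2 fold change of -2.62 (SE 0.12, edgeR adjusted p = 4.4e-04). Each 12M library was thus far below the lowest 3M library. At 6M it averaged 5.89 ± 2.14 CPM and at 18M 0.940 ± 0.288 CPM (SD, n = 3), so the mean was lower at each later age.

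Klk1b21 had 21.8, 19.7 and 20.1 CPM at 3M and 3.42, 2.52 and 3.46 CPM at 12M (log2 fold change -2.71, SE 0.14, edgeR adjusted p = 5.3e-04). Klk1b24 had 16.4, 13.1 and 19 CPM at 3M and 3.37, 3.32 and 3.85 CPM at 12M (log2 fold change -2.20, SE 0.15, edgeR adjusted p = 0.00418). Both were intermediate at 6M, with 10.8 ± 1.91 CPM for Klk1b21 and 9.69 ± 1.24 CPM for Klk1b24 (SD, n = 3). The 18M means were 2.0 and 1.91 CPM, respectively.

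Klk1b22 had the fewest reads of the 4. Its 3M libraries held 4.27, 2.81 and 5.51 CPM (213, 153 and 301 reads) and its 12M libraries 0.197, 0.274 and 0.496 CPM (11, 14 and 29 reads), a log2 fold change of -3.68 (SE 0.37, edgeR adjusted p = 0.0305). With so few reads at 12M its relative error was the widest of the 4, and it lost its call when 3M replicate 1, 3M replicate 3, 12M replicate 1 or 12M replicate 2 was left out. The 6M mean was 1.57 ± 0.435 CPM, and at 18M the libraries held 0.130, 0.282 and 0 CPM.

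The other kallikreins of the cluster did not pass the test. Of the 14 listed genes 13 were tested, and 4 of these were called. Klk1b8 was at 47.7 ± 4.56 CPM at 3M and 50.9 ± 11.1 CPM at 12M, and Klk1b9 at 11.2 and 11.9 CPM. Klk1b26 ranged from 9.45 to 10.5 CPM and from 7.71 to 11.3 CPM. Klk1 was at 5.09 and 4.98 CPM and Klk1b3 at 2.41 and 2.79 CPM. Klk1b16, at 1.84 CPM at 3M and 0.731 CPM at 12M, had an unadjusted p of 0.0119 and an edgeR adjusted p of 0.482. Most reads of Klk1b8, Klk1b9, Klk1b26 and Klk1 lay on assembled transcripts. The annotated Klk1b8 transcript held 417, 96 and 443 reads at 3M and 1, 0 and 1 reads at 12M, out of 2228 to 3717 reads for the gene. On annotated transcripts alone its log2 fold change was -8.72 (edgeR adjusted p = 0.196). On that measure the edgeR adjusted p was 0.204 for Klk1b22, 0.130 for Klk1b21, 0.0731 for Klk1b24 and 0.0117 for Klk1b27. So the level of Klk1b8 overlapped between the ages as a sum of its transcripts, while its annotated transcript was nearly without reads at 12M. For Klk1b26 the annotated transcript held 7, 10 and 26 reads at 3M and 0, 1 and 16 reads at 12M, and for Klk1b9 232, 195 and 229 against 213, 188 and 315 reads. The reads of Klk1b27, Klk1b24 and Klk1b22 lay wholly on annotated transcripts. In the plot of the cluster, the 4 called genes step down with age while Klk1b8, Klk1b9, Klk1b26 and Klk1 stay within overlapping ranges.

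**Figure D2:**
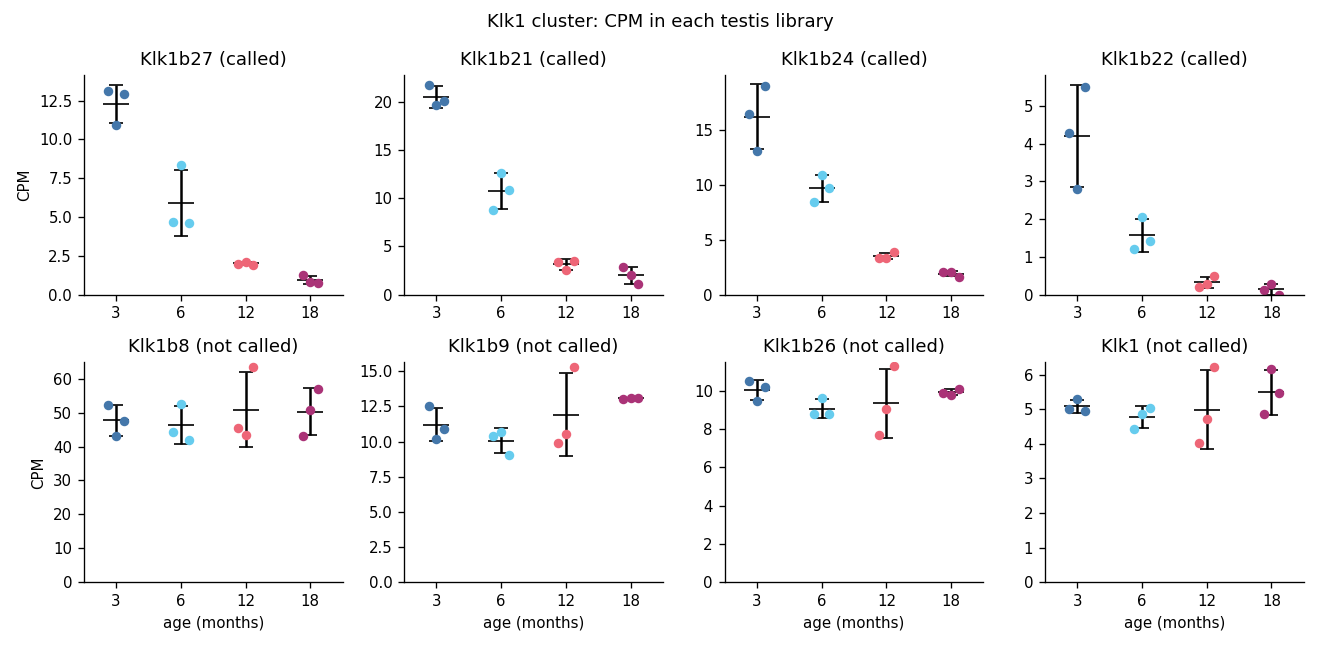
CPM of 8 kallikrein genes in each of the 12 libraries by age in months, with a separate linear axis for each gene. Points are libraries, horizontal lines are means and whiskers are SDs (n = 3); in the upper row the 12M points lie below every 3M point, and in the lower row the ages overlap as sums over annotated and assembled transcripts.

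The cluster's genes resemble each other, which bears on how reads could be split between them. The GENCODE transcripts of Klk1b21 and Klk1b24 were 92.7% identical, and that of Klk1b27 was 91.5% identical to Klk1b24. Windows of 100 bases found unchanged in another transcript of the cluster made up 1.77% of the windows of Klk1b27, 3.5% of Klk1b21, 2.57% of Klk1b24 and 0% of Klk1b22. When the reads of all 14 genes were summed to 1 row, an alternative chosen after seeing the data, the log2 fold change was -0.56 (SE 0.14, unadjusted p = 0.00405, edgeR adjusted p = 0.397). The 14 genes summed to 133 ± 12.2 CPM at 3M and 90.8 ± 18.1 CPM at 12M (SD, n = 3), and Klk1b8 was the member with the most reads.

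Ephx1 encodes microsomal epoxide hydrolase, which detoxifies epoxides. It had 65.6, 65.1 and 60.5 CPM at 3M and 31.2, 38.1 and 36.7 CPM at 12M, with no overlap (log2 fold change -0.85, SE 0.09, edgeR adjusted p = 0.0308). The 6M mean of 59.5 ± 3.85 CPM was near that of 3M and the 18M mean of 29.9 ± 8.91 CPM near that of 12M (SD, n = 3). Ephx1 stayed called in 1 of the 6 fits that each left out a library.

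Fetub encodes fetuin-B, a secreted inhibitor of the ovastacin protease. Its 3M libraries held 0.763, 0.975 and 0.421 CPM (38, 53 and 23 reads) and its 12M libraries 4.95, 4.38 and 6.77 CPM (276, 224 and 396 reads). The log2 fold change was 2.90 (SE 0.30, edgeR adjusted p = 0.0308). Every read lay on annotated Fetub transcripts. The mean was 2.82 ± 0.744 CPM at 6M and 7.15 ± 1.75 CPM at 18M (SD, n = 3), higher at each later age, and the gene stayed called in 3 of the 6 fits that left out a library.

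Snhg11, a small nucleolar RNA host gene, had 13.4, 12.5 and 11.9 CPM at 3M and 22.3, 21.2 and 21.2 CPM at 12M (log2 fold change 0.78, SE 0.08, edgeR adjusted p = 0.0308). It did not continue with age, with 19.9 ± 3.12 CPM at 6M and 17.5 ± 1.51 CPM at 18M (SD, n = 3). It was called in none of the 6 fits that left out a library.

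Of the steroidogenic enzymes, Cyp11a1 came closest to the threshold. No member of the list of 14 steroidogenic enzymes was called. At an unadjusted p at or under 0.05, 4 of the 14 were lower and 0 higher, beside 3.97% and 4.20% of all genes tested, and the median log2 fold change of the list was -0.21. The 4 were Cyp11a1, Cyp17a1, Hsd17b3 and Akr1cl, and DESeq2's Wald test, the alternative test, called these 4 and no other member of the list. It called 125 genes in all.

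Cyp11a1, which cleaves the cholesterol side chain in the first step of steroid synthesis, had 63.7, 86.7 and 62.9 CPM at 3M and 33.7, 35.9 and 34.5 CPM at 12M. Its log2 fold change was -1.04 (SE 0.13, edgeR adjusted p = 0.0662). The groups did not overlap, and 3M replicate 2 stood above the other two 3M libraries. Without that library the log2 fold change was -0.87 and the edgeR adjusted p 0.0365. The 6M mean was 62.1 ± 6.79 CPM and the 18M mean 24.7 ± 9.18 CPM (SD, n = 3).

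Cyp17a1, the 17-alpha-hydroxylase, had 148, 197 and 133 CPM at 3M and 89.0, 81.5 and 85.8 CPM at 12M (log2 fold change -0.90, SE 0.14, edgeR adjusted p = 0.147). The ages again did not overlap, and the same 3M library was the highest. In the comparison of 6M with 18M, which shares no library with this one, Cyp17a1 was called, falling from 135 ± 6.61 to 59.0 ± 7.08 CPM (log2 fold change -1.19, SE 0.09, edgeR adjusted p = 0.00923). Hsd17b3, which makes testosterone from androstenedione, was at 15.6 CPM at 3M and 10.8 CPM at 12M (log2 fold change -0.53, edgeR adjusted p = 0.338). Akr1cl, an aldo-keto reductase gene, was at 89.6 and 68.4 CPM (log2 fold change -0.39, edgeR adjusted p = 0.179).

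The other 10 enzymes of the list did not reach an unadjusted p of 0.05. Hsd3b6, which encodes a 3-beta-hydroxysteroid dehydrogenase of Leydig cells, was at 81.6 CPM at 3M and 60.8 CPM at 12M (log2 fold change -0.43, unadjusted p = 0.0507, edgeR adjusted p = 0.612). Fdxr, which passes electrons to ferredoxin, was at 27.1 and 22.7 CPM (log2 fold change -0.26, unadjusted p = 0.0534, edgeR adjusted p = 0.615), and Akr1c14 at 1.04 and 0.754 CPM. Hsd3b1 was at 35.3 CPM at 3M and 33.9 CPM at 12M, the electron donor gene Fdx1 at 29.8 and 30.4 CPM, and Por at 19.4 and 18.7 CPM. Cyp19a1, the aromatase, was at 8.41 and 9.75 CPM, with all 12M libraries above the 3M libraries and an unadjusted p of 0.0612. Of 20 genes of cholesterol supply, 0 were called. At an unadjusted p at or under 0.05, 0 were higher and 2 lower, beside 4.20% and 3.97% of all genes tested. The cholesterol exporter gene Abca1 (46.1 against 35.6 CPM) was 1 of the 2. The median log2 fold change of the 20 was -0.04, and DESeq2 also called 0 of them. Star, which delivers cholesterol to the inner mitochondrial membrane, was at 34.2, 55.2 and 30.9 CPM at 3M and 30.1, 32.5 and 33.3 CPM at 12M, so the ages overlapped.

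Among 13 Leydig cell hormone, receptor and factor genes, 0 were called (median log2 fold change -0.18). At an unadjusted p at or under 0.05, 6 were lower and 1 higher, beside 3.97% and 4.20% of all genes tested. Without 12M replicate 1 these counts were 3 lower and 0 higher. Of all genes tested, 546 were then lower and 520 higher, against 719 and 760 with all 6 libraries. DESeq2, which called 125 genes in all, called 2 of the 13, Insl3 and Prlr. Insl3, the insulin-like peptide hormone of Leydig cells, had 554, 619 and 612 CPM at 3M and 450, 467 and 441 CPM at 12M (log2 fold change -0.39, SE 0.06, edgeR adjusted p = 0.159). Lhcgr, the luteinizing hormone receptor, was at 2.93 and 1.74 CPM with overlapping libraries. The prolactin receptor gene Prlr was at 17.4 and 11.3 CPM (edgeR adjusted p = 0.359) and Ptch1, the hedgehog receptor, at 8.85 and 6.65 CPM (edgeR adjusted p = 0.338). Nr4a1, a nuclear receptor, was the member that was higher at an unadjusted p at or under 0.05, at 45.1 and 50.2 CPM (edgeR adjusted p = 0.588).

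**Figure D3:**
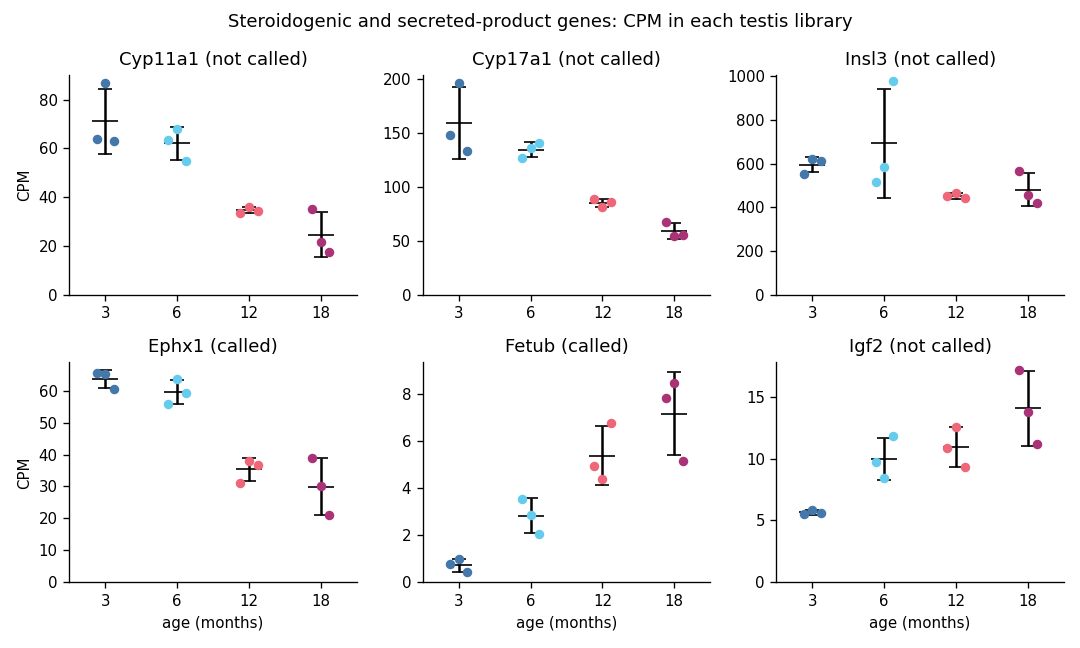
CPM of 6 genes in each of the 12 libraries by age in months, with a separate linear axis for each gene. Points are libraries, horizontal lines are means and whiskers are SDs (n = 3); for all 6 genes the 3M and 12M points do not overlap, and Ephx1 and Fetub were called in that comparison.

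The summed level of the 8 Leydig cell markers ranged from 932 to 1110 CPM in the 3M libraries and from 690 to 738 CPM in the 12M libraries, so that the 12M mean was 71.2% of the 3M mean. The sums were 869, 970 and 1400 CPM at 6M (mean 1080 CPM) and 814, 645 and 593 CPM at 18M (mean 684 CPM). Of the 8 markers 5 were lower at an unadjusted p at or under 0.05, beside 3.97% of all genes tested, none was called, and all were detected. All 8 are also members of the steroidogenic, cholesterol supply or Leydig hormone lists above. The markers are thus not a separate readout of Leydig cells. The 12 Sertoli cell markers summed to 1153 to 1194 CPM at 3M and 1159 to 1192 CPM at 12M, with 0 of the 12 at an unadjusted p at or under 0.05. Round spermatid markers summed to 1306 to 1557 CPM at 3M and 1516 to 1686 CPM at 12M, and elongating spermatid markers to 21091 to 23354 CPM at 3M and to 22735, 22614 and 29357 CPM at 12M, where replicate 3 stood above the other two. Without 12M replicate 3, the median log2 fold change of the elongating spermatid markers was 0.06 instead of 0.19. The part of the Leydig cell marker values in the values of the kallikreins, Ephx1 and the steroidogenic enzymes was not tested.

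The markers matched the labelled tissue. Leydig, Sertoli and germ cell markers were present in every library, whereas 2 of 13 epididymal markers had enough reads to be tested and the 13 summed to 4.31 to 5.0 CPM at 3M and 4.65 to 4.89 CPM at 12M.

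The collagens and matrix proteins make up the connective tissue between and around the tubules. Of 27 collagen and matrix genes, 0 were called, and the median log2 fold change was -0.35. At an unadjusted p at or under 0.05, 13 were lower and 0 higher at 12M, beside 3.97% and 4.20% of all genes tested. DESeq2, which called 125 genes in all, called 7 of the 27, all lower. These were Col1a1, Col1a2, Col3a1, Col4a1, Col4a2, Eln and Lamb1. Col1a2, a chain of type I collagen, had 15.4, 21.4 and 14.9 CPM at 3M and 8.78, 8.99 and 9.0 CPM at 12M (log2 fold change -0.95, SE 0.14, edgeR adjusted p = 0.147). Col1a1 was at 8.71 and 4.63 CPM, Col3a1 at 10.1 and 5.68 CPM, and Col4a1, a basement membrane collagen chain, at 17.6 and 10.2 CPM. Lamb1, a laminin chain, was at 10.9 and 7.45 CPM (edgeR adjusted p = 0.197), and elastin (Eln) at 5.31 and 3.06 CPM.

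Within this list the genes did not all lie on the same side. Col5a1 was at 25.1 CPM at 3M and 31.7 CPM at 12M and Col5a2 at 1.55 and 2.12 CPM, with unadjusted p of 0.0984 and 0.0836. Col1a1, Col1a2 and Col3a1 were highest in 3M replicate 2, the library that was also highest for Cyp11a1, Cyp17a1 and Star. Without that library, 12 of the 27 matrix genes were lower and 2 higher at an unadjusted p at or under 0.05, and the median was -0.24. Of all genes tested, 478 were then lower and 511 higher, against 719 and 760 with all 6 libraries. List counts that leave out a library were added after seeing the data. The same 4 steroidogenic enzymes, Cyp11a1, Cyp17a1, Hsd17b3 and Akr1cl, were lower at that limit without 3M replicate 2 and 0 were higher, with a median of -0.21. The 8 stromal markers, which share 3 collagen genes with this list, summed to 59.9 to 88.4 CPM at 3M and 45.5 to 51.5 CPM at 12M. The 5 blood markers in the table summed to 32.7 to 44.3 CPM and 26.1 to 27.6 CPM; their part in the matrix values was not tested.

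Immune genes lay in both directions and none was called by edgeR. Of 18 complement and inflammation genes tested, DESeq2 called Ccl8, Cfb and C2, among 125 genes in all. The median log2 fold change of the 18 was -0.18. At an unadjusted p at or under 0.05 in edgeR's test, 5 were lower and 1 higher, beside 3.97% and 4.20% of all genes tested. Without 12M replicate 1, 3 were lower and 1 higher. Of all genes tested, 546 were then lower and 520 higher, against 719 and 760 with all 6 libraries. Ccl8, a chemokine that attracts monocytes and T cells, had 0.401, 0.386 and 0.476 CPM at 3M and 1.34, 1.41 and 1.3 CPM at 12M (log2 fold change 1.67, SE 0.20, edgeR adjusted p = 0.0629). Its 6M libraries ranged from 0.666 to 2.31 CPM and its 18M libraries from 0.665 to 2.03 CPM. Cfb, complement factor B, was at 8.61 and 4.87 CPM (edgeR adjusted p = 0.219), but had a log2 fold change of 0.03 on annotated transcripts alone. C2 was at 16.2 and 12.1 CPM and C1qa at 4.70 and 3.63 CPM.

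DESeq2 called 0 of the antigen presentation genes and 0 of the interferon response genes. Of 13 antigen presentation genes tested, the median log2 fold change was 0.12. At an unadjusted p at or under 0.05, 4 were higher and 1 lower, beside 4.20% and 3.97% of all genes tested. Without 3M replicate 2 or without 12M replicate 1, 2 were higher. Of all genes tested, 511 were higher and 478 lower without 3M replicate 2, and 520 and 546 without 12M replicate 1. With all 6 libraries these were 760 and 719. The class II genes H2-Aa (4.24 against 5.79 CPM, edgeR adjusted p = 0.359) and H2-Eb1 (4.17 against 5.49 CPM, edgeR adjusted p = 0.382) were among the 4 that were higher with all 6 libraries. So was Cd74, the class II invariant chain (8.78 against 10.8 CPM). Among 16 interferon response genes tested, 1 was higher and 3 lower (1 lower without 3M replicate 2 or without 12M replicate 1), with Mx1, an antiviral GTPase, at 1.98 and 3.00 CPM (edgeR adjusted p = 0.323) and Gbp2 at 1.08 and 0.674 CPM. The 9 macrophage markers summed to 73.0 to 79.2 CPM at 3M and 59.9 to 72.2 CPM at 12M, and 2 of them were lower at an unadjusted p at or under 0.05.

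Germ cell genes lay close together at both ages. None of the 26 tested genes of meiotic recombination and the synaptonemal complex, the 20 genes of the piRNA pathway and germ granules or the 14 cell cycle inhibitor and senescence genes reached an unadjusted p of 0.05 in edgeR's test, and DESeq2 called 0 members of each list. Of all genes tested, 8.17% reached that unadjusted p. Median log2 fold changes of the lists, in that order, were 0.03, 0.00 and -0.02. Meiob, a meiotic single-strand DNA-binding protein gene, was at 15.4 and 13.8 CPM, and the mismatch repair homologue Msh4 at 22.3 and 24.8 CPM. Rb1, the retinoblastoma tumour suppressor gene, was at 33.2 and 31.0 CPM.

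In the acrosome and fertilization list, 4 of 26 tested genes were higher and 0 lower at an unadjusted p at or under 0.05. Of all genes tested, 4.20% were higher and 3.97% lower at that limit. The median log2 fold change of the list was 0.12. Acrv1, an acrosomal vesicle protein gene, was at 199 ± 17.7 CPM at 3M and 243 ± 11 CPM at 12M (log2 fold change 0.29, SE 0.08, edgeR adjusted p = 0.426). Of the 27 flagellum and sperm energy genes, 5 were higher and 0 lower (median 0.05), among them Catsper4, a subunit of the sperm calcium channel, at 147 and 171 CPM. Of 14 tested protamine, transition protein and spermatid chromatin genes, 0 were higher and 1 lower at the same limit. These counts depended on single libraries. Without 3M replicate 2, 1 acrosome gene (median 0.07) and 0 flagellum genes were higher, and without 3M replicate 3, 7 and 6 were. Flagellum genes numbered 3 higher without 3M replicate 1, 2 without 12M replicate 1 and 2 without 12M replicate 3. Without 12M replicate 2, 5 acrosome genes were higher and 2 lower, and 5 flagellum genes were higher and 3 lower. The numbers over all genes tested moved as well. With all 6 libraries, 760 were higher and 719 lower. These became 892 and 985 without 12M replicate 2, 511 and 478 without 3M replicate 2, and 802 and 693 without 3M replicate 3. Higher genes numbered 745 without 3M replicate 1, 520 without 12M replicate 1 and 633 without 12M replicate 3. The log2 fold changes of the acrosome and flagellum genes did not exceed 0.29 with all 6 libraries, and no member was called by edgeR or DESeq2.

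**Figure D4:**
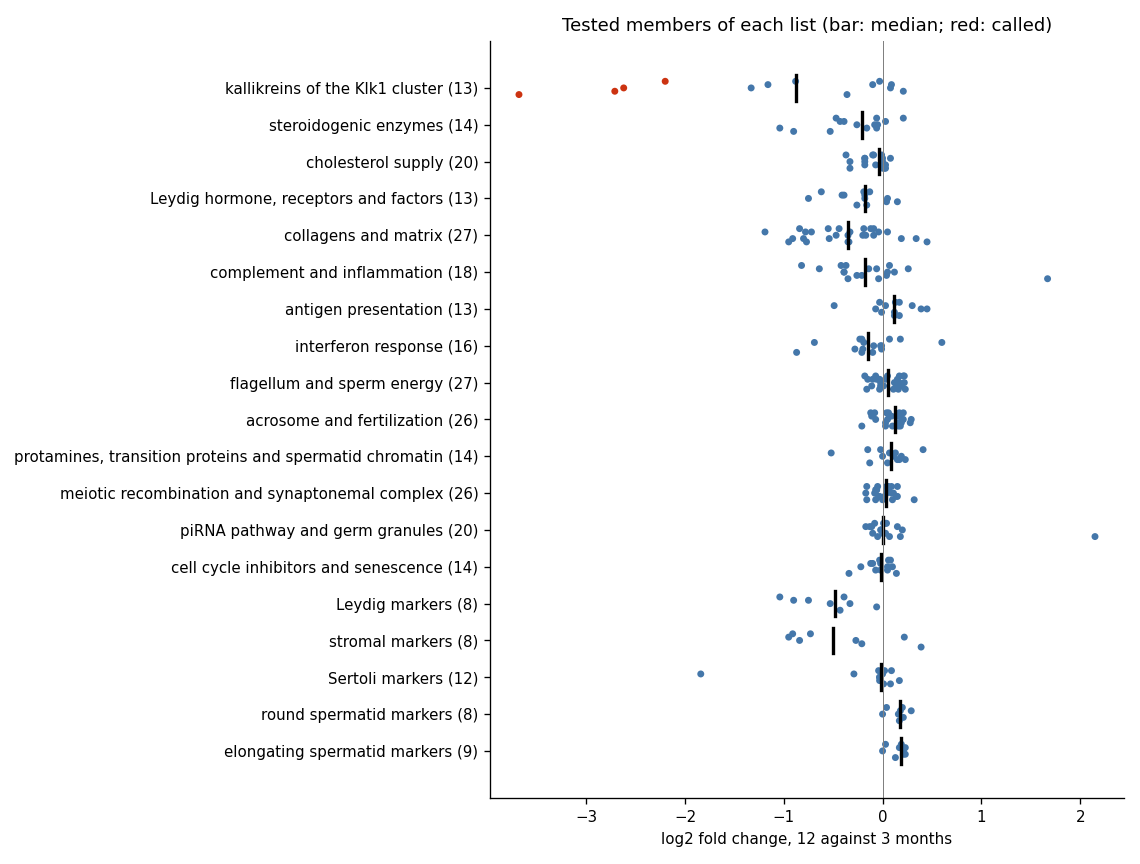
Fitted log2 fold change (12M against 3M, x axis) of each tested member of 19 lists, with the number of tested members in brackets. Bars are list medians and red points are called genes; the 4 red points belong to the kallikreins, and the matrix, Leydig and stromal medians lie to the left of 0.

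The remaining lists held no gene called by edgeR. Their counts of higher and lower genes are at an unadjusted p at or under 0.05, a limit met by 4.20% and 3.97% of all genes tested. Of 26 glutathione and antioxidant genes tested, 3 were higher and 3 lower, with the glutathione transferase Gsta2 at 7.95 and 11.8 CPM and the gamma-glutamyltransferase Ggt5 at 1.72 and 1.06 CPM. Of 24 heat shock and chaperone genes, 1 was higher (Hspb1, 13.1 against 16.2 CPM) and 3 lower, including Hspa1a at 19.4 and 13.1 CPM. Of 22 retinoic acid pathway genes, 1 was higher and 2 lower, and Aldh1a1, a retinaldehyde dehydrogenase gene, was at 163 and 130 CPM but had a log2 fold change of 0.05 on annotated transcripts alone. Of 18 blood-testis barrier genes 1 was higher and 0 lower (Cldn3, a tight junction claudin, 54.4 against 64.7 CPM), of 18 immediate early genes tested 1 was higher and 2 lower, and of 18 circadian clock genes 0 differed at that limit. DESeq2 called Gsta2, Hspa1a and Aldh1a1 in these lists, among 125 genes in all.

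Below the threshold, 14 genes were named because they had the smallest unadjusted p at a mean level of at least 1 CPM, Cyp11a1, Cyp17a1 and Col1a2 among them. Igf2, an insulin-like growth factor, had 5.52, 5.85 and 5.57 CPM at 3M and 10.9, 12.6 and 9.36 CPM at 12M (log2 fold change 0.96, SE 0.12, edgeR adjusted p = 0.0953). Its libraries did not overlap, and the mean was 9.98 CPM at 6M and 14.1 CPM at 18M. Bhmt, which remethylates homocysteine, was at 82.3 and 112 CPM, and the mitochondrial gene Slc25a46 at 33.6 and 46.3 CPM. The log2 fold change of Slc25a46 was 0.46, and 1.84 on annotated transcripts alone, which held 12.4 to 56.3% of its reads. The others were lower at 12M. They included Itih2, a hyaluronan-binding serum protein gene (13.4 against 7.02 CPM), Pon3, a paraoxonase gene (3.83 against 2.15 CPM), Pdk4, which inhibits pyruvate dehydrogenase (1.81 against 0.856 CPM), and Mfap4, a microfibril-associated protein gene (4.53 against 2.33 CPM). Klhl14 was at 3.29 and 1.75 CPM, Glb1l2 at 8.24 and 4.48 CPM and Adam11 at 24.7 and 13.4 CPM. Annotated transcripts held 0.915 to 72.6% of the Adam11 reads, and on these alone its log2 fold change was -0.41 instead of -0.89. Ubl5 was at 68.8 and 41.2 CPM, and its reads lay on other isoforms at 12M, since 1 annotated transcript held 2726, 2902 and 2888 reads at 3M and 33, 172 and 113 reads at 12M.

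Mpp4 and Tmem237 were called in opposite directions and lie next to each other on the minus strand of chromosome 1 (GRCm38, GENCODE vM21), with Tmem237 at 59100590-59120408 and Mpp4 at 59120935-59163389. Mpp4 encodes a membrane-associated guanylate kinase and Tmem237 a protein of the ciliary transition zone. Mpp4 had 15.3, 13.3 and 10.8 CPM at 3M and 40.7, 38.8 and 43.4 CPM at 12M (log2 fold change 1.64, SE 0.13, edgeR adjusted p = 0.00776). Tmem237 had 40.7, 39.2 and 49.8 CPM at 3M and 15.1, 15.1 and 10.8 CPM at 12M (log2 fold change -1.66, SE 0.15, edgeR adjusted p = 0.0215).

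The annotated Mpp4 transcripts held 0 reads in every one of the 6 libraries. The reads filed under Mpp4 lay on assembled transcripts that run from Mpp4 into Tmem237, and a different one carried most of them in each 12M library. One, spanning 59100946-59125230, held 1778 reads in 12M replicate 1 against 25 and 0 in the other two 12M libraries. Another, spanning 59100944-59137079, held 1569 reads in 12M replicate 2, and the other, spanning 59100597-59132798, held 2106 reads in 12M replicate 3. Added together, the 2 genes stood at 56.4 ± 4.06 CPM at 3M, 55.3 ± 6.32 CPM at 6M, 54.6 ± 1.04 CPM at 12M and 56.7 ± 2.75 CPM at 18M (SD, n = 3), a sum taken after seeing the data and with no test. The library of 18M replicate 1 had 34.4 CPM for Mpp4 and 19.2 CPM for Tmem237, near the 12M values, while the other 18M libraries were near the 3M values.

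Aym1, named activator of yeast meiotic promoters 1, lies at 113357294-113357821 on chromosome 5 and was also carried by assembled transcripts. It had 175, 183 and 155 CPM at 3M and 51.8, 81.1 and 58.0 CPM at 12M (log2 fold change -1.43, SE 0.16, edgeR adjusted p = 0.0490). The annotated transcript of 528 bases held 5, 5 and 9 reads at 3M and 4, 4 and 5 reads at 12M. Nearly all reads lay on 5 assembled transcripts of 22392 to 26692 bases that overlap the gene. At 18M the level was 162 ± 9.34 CPM (SD, n = 3), and at 6M it was 180, 159 and 41.4 CPM, so 1 of the 6M libraries resembled the 12M libraries.

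**Figure D5:**
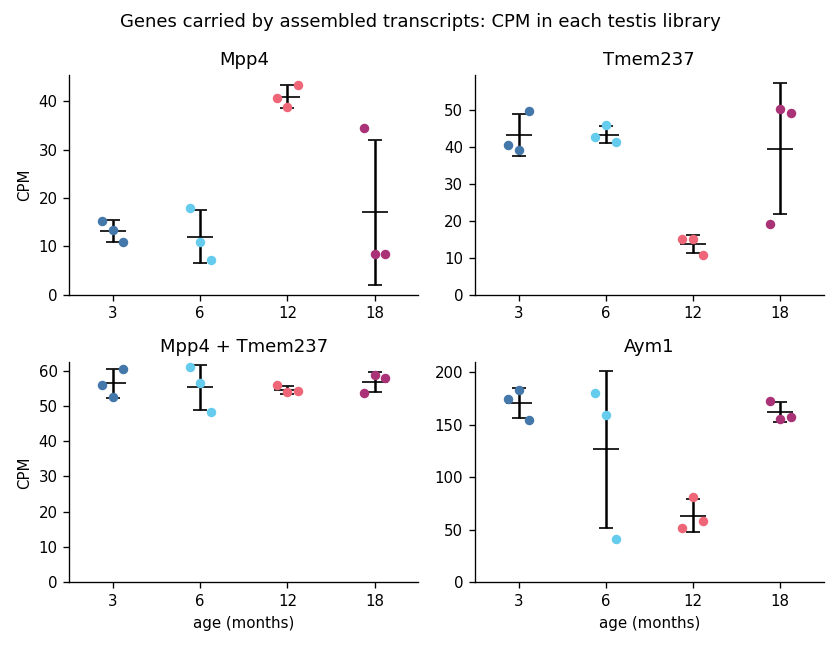
CPM of Mpp4, Tmem237, their sum and Aym1 in each of the 12 libraries by age in months, with a separate linear axis for each panel. Points are libraries, horizontal lines are means and whiskers are SDs (n = 3); Mpp4 and Tmem237 move in opposite directions at 12M while their sum lies between 48.4 and 60.9 CPM in every library.

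The comparison of 6M with 18M shares no library with that of 3M with 12M, so genes could be looked up in it. There, 6 of 18059 genes were called (0.0332%), 2 higher (0.0111%) and 4 lower (0.0221%) at 18M, and 5 of them (0.0277%) differed by a log2 fold change of at least 1. At an unadjusted p at or under 0.05, 14.7% of the genes tested differed, 7.13% higher and 7.61% lower. Of the 10 genes called between 3M and 12M, 8 had the same direction between 6M and 18M and 6 also had an unadjusted p at or under 0.05: the 4 kallikreins, Ephx1 and Fetub. Klk1b24 was called in both (log2 fold change -2.35, SE 0.15, edgeR adjusted p = 0.00561 between 6M and 18M), which is 1 of 10 and 1 of 6 called genes. Klk1b27 had a log2 fold change of -2.65 and an edgeR adjusted p of 0.0968, Klk1b21 of -2.44 and 0.114, and Klk1b22 of -3.60 and 0.230. Ephx1 had -1.0 and 0.230, and Fetub 1.34 and 0.227. Snhg11 (-0.19) and Aym1 (0.35) had the opposite sign.

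Over the 17889 genes tested in both comparisons, 66.6% had the same direction. Of the 1472 of them with an unadjusted p at or under 0.05 between 3M and 12M, 81.5% had the same direction and 415 also met that limit between 6M and 18M, which is 28.2% of these and 15.7% of the 2651 genes that met it between 6M and 18M. Split by direction, 35.5% of the 718 genes lower at 12M and 21.2% of the 754 genes higher at 12M met the limit in the same direction at 18M against 6M. Between 6M and 18M, 7.61% of all genes tested were lower and 7.13% higher at that limit. In the lists, 11 of the 27 matrix genes were lower and 2 higher at 18M (median -0.32). Of the 8 Leydig cell markers, 6 were lower and 0 higher (median -0.90). Of the 26 acrosome genes tested, 12 were higher and 0 lower (median 0.11).

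The comparison of 12M with 18M uses the same 12M libraries, so its values are given beside those above and no overlap is counted. There, 5 of 18109 genes were called (0.0276%), 3 higher (0.0166%) and 2 lower (0.0110%) at 18M, 4 of them (0.0221%) with a log2 fold change of at least 1. At an unadjusted p at or under 0.05, 637 genes (3.52%) differed, 1.64% higher and 1.88% lower. Klk1b27 had a log2 fold change of -1.09 (SE 0.22), Klk1b24 of -0.88 (SE 0.14) and Cyp17a1 of -0.53 (SE 0.09), with edgeR adjusted p of 1.0, 0.442 and 0.587. The matrix list had 0 genes at an unadjusted p at or under 0.05 and a median of -0.03. The 8 Leydig cell markers had 4 lower, with a median of -0.49.

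The study's own gene names were also looked up between 3M and 12M. Of 9 genes named in its text, Klk1b27 was called. The study also lists transcripts of Klk1b21, Klk1b22, Klk1b24, Klk1b8, Ephx1, Fetub, Itih2 and Ccl8 among those it relates to age. All of these were chosen on these samples, so their values here are not independent evidence. The study's values, those of Pgrmc1 and Klk1b8 included, are for single transcripts. The levels here are sums over a gene's transcripts and thus an unlike measure. Besides Cyp11a1 and Cyp17a1, the progesterone receptor membrane component Pgrmc1 was at 77.3 and 71.8 CPM, Agtpbp1 at 268 and 255 CPM, Suds3 at 111 and 101 CPM, 2410089E03Rik at 145 and 138 CPM, Tex14 at 82.8 and 82.1 CPM and 4921509C19Rik at 74.2 and 80.3 CPM. The edgeR adjusted p of these 6 ranged from 0.668 to 0.965.

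The promoters of the named genes were searched for the sequences CAAGGTCA and CAAGGCCA, which the steroidogenic factor NR5A1 binds, and TGACGTCA, the cAMP response element, on both strands. Of the named genes, 50 matched a RefSeq promoter, with 69 promoters in all. CAAGGTCA was found in 3 of the 69, those of Bhmt, Klk1b21 and Pon3, beside 1.56% of all promoters. CAAGGCCA was found in 3, those of Espn, Itih2 and Ubl5, beside 2.40% of all promoters, and TGACGTCA in 1, that of H2-Aa, beside 1.79%. Among the 4 called kallikreins CAAGGTCA was thus in the window of Klk1b21, in that printed above as its reverse complement. A match describes the letters of the window and is not a measured site.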

How the data were processed

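Testis total RNA from 12 mice was sequenced after ribosomal RNA removal, with an unstranded TruSeq kit. The authors aligned reads to mm10 with HISAT2 and assembled transcripts with StringTie (versions not given in the sources used here), and deposited estimated counts of reads and FPKM values per transcript and library. The authors' estimated counts, which StringTie assigned to transcripts, were whole numbers as deposited, and StringTie's division of reads between overlapping transcripts can move them between genes. The deposited FPKM values were used as an alternative scale. Assembly files of single libraries were not used.

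Estimated counts were summed per gene over 60321 of 71967 transcripts (GffCompare classes =, c, j and o, 94.3 to 95% of reads), and tested with edgeR 4.0.16 in R 4.3.3 (TMM, filterByExpr by age, quasi-likelihood, Benjamini-Hochberg over all genes tested, threshold 0.05). Only the 6 libraries compared entered a fit. DESeq2 1.42.0 was the alternative test. The labels call the 3 samples of an age biological replicates. Named genes were the called genes with a mean of at least 1 CPM and no overlap, up to 12 rises and 12 falls, filled to 24 by smallest unadjusted p, plus the 2 lowest p of each list and the genes the study names. The members and the 21 gene and 14 marker lists were chosen with earlier results of these data known. The scripts were tested on simulated counts. Promoters came from RefSeq (GRCm38.p6), transcripts from GENCODE vM21 and identities from Biopython 1.88. Columns of per-sample values not used numbered 0. The values of 1 listed gene are not reported here.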

Additional observations from a re-analysis of the deposited data

How the results depend on the processing

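Scaling by library size or by DESeq2 size factors, other low-count filters, all class codes and a fit of all 12 libraries left the count of genes called between 3M and 12M at 9 or 10 (10 as reported). Of the 10, the fit of all 12 libraries called 6 (not Ephx1, Mpp4, Tmem237 and Aym1), and the other low-count filters and all class codes called 9 (not Aym1). DESeq2's Wald test called 125 (47 higher, 78 lower, the 10 included), robust dispersions 17 and annotated transcripts alone 5 (1 of the 10 included). The study's rule of an unadjusted p with a log2 fold change of at least 1, applied here to edgeR's p of gene sums, gave 124. The study itself applied that rule with DESeq2 to transcripts between 3M and 18M, so the counts are not comparable. Leaving out 1 library gave 5 to 22 genes: 5 without 3M replicate 2, 6 without 12M replicate 1, 16 without 12M replicate 2 and 22 without 12M replicate 3. Between 6M and 18M, 6 genes became 384, 14, 11 and 156 under these 4 settings and 5 to 18 without 1 library. Between 12M and 18M, 5 genes became 35 with DESeq2, 0 in the fit of all 12 libraries (with DESeq2 on 6 libraries 35, and 637 at an unadjusted p at or under 0.05 in edgeR on 6), 75 under the study's rule and 5 to 19 without 1 library. The causes were not tested.

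Klk1b27 was called in 16 of 16 settings, Klk1b21 and Klk1b24 in 15 of 16 (not on annotated transcripts alone), Klk1b22, Fetub and Tmem237 in 11 of 16, Mpp4 in 12 of 15, Ephx1 and Snhg11 in 8 of 16 and Aym1 in 4 of 15. Over all named genes, 944 of the values under an alternative kept direction and side of the threshold, 47 lost and 35 gained a call, and 10 changed sign. None of the 10 was called. On annotated transcripts alone these were log2 fold changes of 0.05 for Aldh1a1, 0.06 for Rb1, 0.03 for Cfb, 0.04 for Espn and -0.01 for Per1. Leaving out 1 library gave -0.16 to 0.03 for Agtpbp1, -0.17 to 0.03 for 2410089E03Rik and -0.04 to 0.02 for Tex14, above 0 without 12M replicate 3, and -0.02 (without 3M replicate 3) to 0.22 for 4921509C19Rik. Tex14 had 0.02 with all class codes.

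Same-numbered 3M and 12M libraries deviated from their group means with correlations of 0.087, 0.027 and -0.003. Differently numbered libraries had correlations of -0.083 to 0.057. With 3 libraries an age, these values cannot decide whether the numbers mark a shared batch, and the reported fits did not pair the samples. With the replicate block, 4 genes were called between 3M and 12M, all 4 lower, and 1 between 6M and 18M. Low counts widened the error, with an SE of 0.37 for Klk1b22 (11 to 29 reads at 12M) and 0.12 for Klk1b27.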
